A study of Mus musculus with 8 samples.

Results

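The smooth muscle contractile genes described here are 10 genes of the actin-myosin apparatus of smooth muscle cells, taken as the rows of the deposited expression table that carry the symbols Myh11, Cnn1, Cnn2, Tagln, Tagln2, Smtn, Mylk, Lmod1, Synpo2 and Cald1. All 10 symbols were found among the 55679 genes of the table, and all 10 passed the filter on low values that 19364 genes passed. RNA-seq of the left ventricle was carried out in male wild-type C57BL/6J mice that carried an osmotic mini-pump under the skin, which delivered either saline (control, 4 libraries) or angiotensin II (ANG II, a peptide hormone that constricts vessels and raises blood pressure) at a dose of 1500 ng/kg/min (4 libraries) over 7 days. Blood was washed out of the heart with saline before the ventricle was taken, and the age of the mice was not given in the sources used here. The study's methods call its replicates biological and describe more per group than the 4 analysed here. The labels number the libraries 1 to 4 in each group and do not tie them to animals, so p-values measure the spread between these libraries. Values are FPKM, fragment counts that were divided by transcript length and by library depth. The lengths that fit the values are means over all annotated transcripts of a gene. Levels of different genes can therefore be set side by side only roughly.

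Smooth muscle contracts when calcium bound to calmodulin switches on myosin light chain kinase, which phosphorylates the light chains of smooth muscle myosin and lets it pull on actin filaments. Calponins, caldesmon, transgelins and smoothelin sit on the actin filament, where they restrain myosin or hold filaments together, and leiomodin starts new filaments. In the ventricle this apparatus belongs to the walls of coronary arteries and arterioles. Several of the genes, among them Cnn2, Tagln2 and Cald1, are also used by fibroblasts, endothelial cells and white blood cells, and Synpo2 by striated muscle. In whole tissue, a change in the number of cells that make an RNA and a change in the RNA made by each cell cannot be told apart.

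The members did not move as 1 group. With ANG II, the RNAs of Cnn1, Tagln2, Cald1 and Cnn2 rose, by 1.18, 0.98, 0.85 and 0.58 on the log2 scale. Smtn was lower by a smaller amount and Synpo2 higher by a smaller amount. The smooth muscle myosin gene Myh11, its kinase Mylk and Lmod1 had ranges that overlapped between the groups. Tagln was at or near 0 in every library, and no fold can be read for it.

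The region before the transcription start is shown for Cnn1, Cnn2 and Cald1, 3 of the 4 members called higher, because many contractile genes are known to carry a CArG box, the site bound by serum response factor (SRF). That of Tagln2, the other member called, overlaps an annotated exon and is not printed. Sequences are from RefSeq (GRCm38.p6), 210 bases each from 250 to 41 bases before an annotated start, 5′ to 3′, on the + strand. Capitals mark the motifs searched for, which were the CArG box (by its name), the MCAT element CATTCCT, the AP-1 site TGANTCA and the TATA box TATAAA, each on both strands of the window from 250 bases before to 50 after the start.
Cnn1 (chr9:22099003-22099212): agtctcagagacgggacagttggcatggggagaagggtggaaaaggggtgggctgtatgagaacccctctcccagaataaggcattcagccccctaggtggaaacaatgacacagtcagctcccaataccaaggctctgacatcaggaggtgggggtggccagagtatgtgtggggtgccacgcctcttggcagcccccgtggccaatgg
Cnn2 (chr10:79988350-79988559): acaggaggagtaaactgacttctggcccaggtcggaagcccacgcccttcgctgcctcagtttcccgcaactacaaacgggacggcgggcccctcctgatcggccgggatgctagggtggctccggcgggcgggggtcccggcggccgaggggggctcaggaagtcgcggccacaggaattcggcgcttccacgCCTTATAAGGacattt
Cald1, first start (chr6:34598254-34598463): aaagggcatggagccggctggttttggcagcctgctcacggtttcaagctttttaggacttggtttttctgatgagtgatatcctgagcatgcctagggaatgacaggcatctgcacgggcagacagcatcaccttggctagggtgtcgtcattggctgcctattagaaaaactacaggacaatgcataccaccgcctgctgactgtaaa
Cald1, second start (chr6:34709194-34709403): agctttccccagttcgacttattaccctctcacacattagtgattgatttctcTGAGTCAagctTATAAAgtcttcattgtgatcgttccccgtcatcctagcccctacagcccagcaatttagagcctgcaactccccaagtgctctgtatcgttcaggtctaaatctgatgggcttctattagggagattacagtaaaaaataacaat
Of the 10 genes, 8 had an entry, with 9 promoters between them. A CArG box was found in 1 of the 9, that of Cnn2, where it began 56 bases before the start, against 1.63% of all 32851 promoters. The Cnn1 window held none of the 4 motifs. The second start of Cald1 had an AP-1 site 197 bases and a TATA box 186 bases before it, while its first start had neither. Of the others, Tagln2 held an MCAT element 118 bases before its start (5.36% of all promoters held one), Mylk an AP-1 site 64 bases before (7.81%), and Synpo2 a TATA box 233 bases before (13.6%). The printed bases of Cnn2 were 66.2% G or C with 20 CpG, those of Cnn1 58.6% with 3 CpG, and the median over all promoters was 51.9% with 4 CpG. These matches are descriptions of the sequence, and the table does not say which Cald1 start was in use.

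The 8 libraries held 14455742 to 16564935 fragments, as read from the steps between low values, and no library pair agreed within sampling noise. Mitochondrially encoded genes took 26.3% to 27.0% of the fragments in control and 19.2% to 21.8% with ANG II, and more genes reached 1 FPKM with ANG II (13123 to 13298) than in control (12397 to 12719). The median log2 fold change over all genes tested was 0.15. It was 0.0040 after median-of-ratios scaling, -0.044 after quantile normalization and 0.054 without mitochondrially encoded genes and the 10 most abundant genes. Relative to the median under each scaling, Cnn1 was higher by 0.93 to 1.03, Tagln2 by 0.75 to 0.83, Cald1 by 0.62 to 0.73 and Cnn2 by 0.36 to 0.44. RNA typical of smooth muscle was present in every library. Acta2, the smooth muscle actin gene, ranged from 78.9 to 143 FPKM and Myh11 from 11.2 to 17.2 FPKM.

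**Figure D1:**
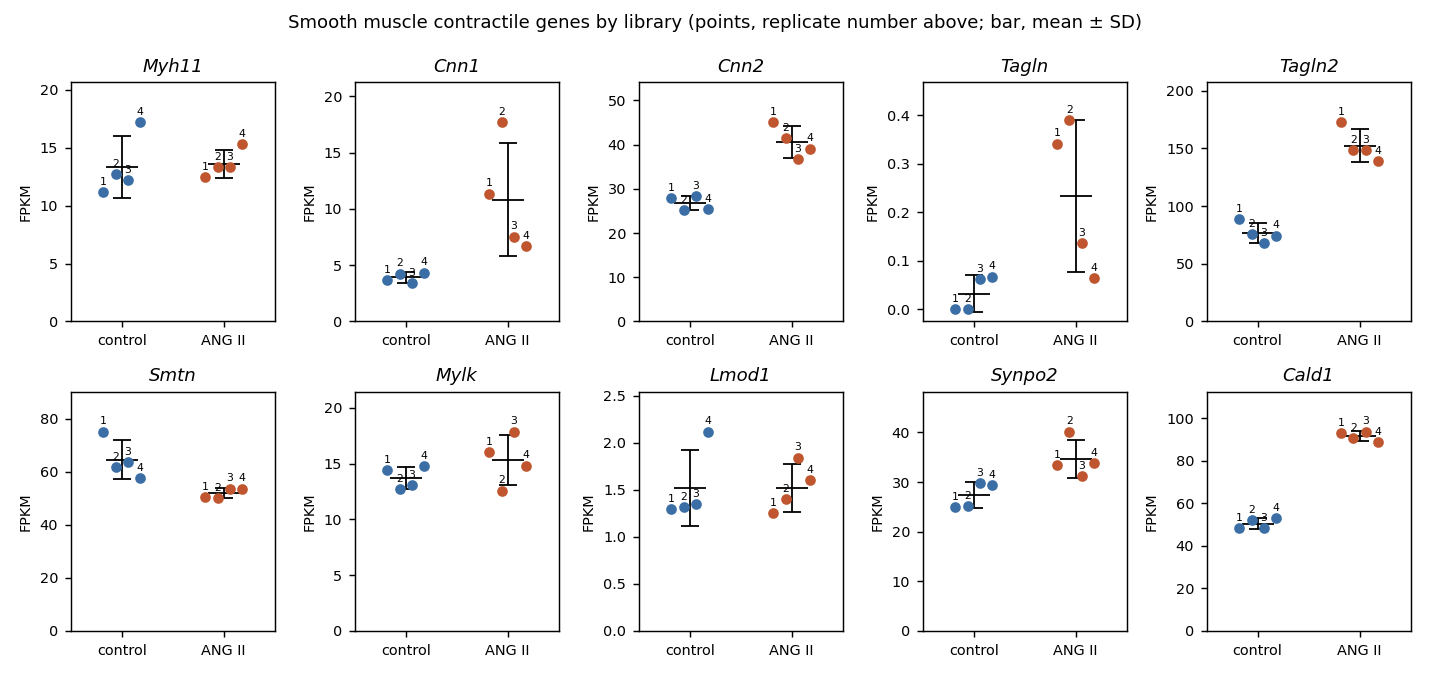
FPKM of each of the 10 genes in the 4 control (blue) and 4 ANG II (red) libraries, with the replicate number above each point and the group mean ± SD as bars. The groups are apart for Cnn1, Cnn2, Tagln2, Smtn, Synpo2 and Cald1 and overlap for Myh11, Mylk, Lmod1 and Tagln, whose axis ends below 0.5 FPKM.

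In the comparison of ANG II with control, 4 of the 10 members were called higher and 0 lower by limma, where a call is a Benjamini-Hochberg adjusted p-value under 0.05 together with an absolute log2 fold change above 0.5. Over all genes tested, 15.4% were called, 14.0% higher (2708 genes) and 1.41% lower (273 genes). After median-of-ratios scaling of the libraries, 3 members were called higher (without Cnn2) and 1 lower (Smtn), and over all genes 1670 were called higher and 804 lower. By the adjusted p-value alone, 5 members were higher and 1 lower, against 28.4% and 4.91% of all genes (33.3% in either direction). This balance also depended on the scaling, with 5496 genes higher and 951 lower as deposited, 2827 and 2530 after median-of-ratios scaling, 2428 and 2967 after quantile normalization and 3450 and 1727 without mitochondrially encoded genes and the 10 most abundant. Under each of these 3 scalings 4 members were higher, without Synpo2, and 1 lower by the adjusted p-value. The 4 ANG II libraries lay above all 4 control libraries for 5 members and below them for 1, which was the case for 28.7% and 5.06% of all genes (33.7% in either direction). The median log2 fold change of the members was 0.29 and the members ran from -0.30 to 1.18. The count of 4 calls did not change when any 1 library was left out.

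The motor gene and the gene of its kinase did not pass the test. Myh11 (chr16:14194535-14291372 in GENCODE M21, GRCm38, the source of all gene positions here) encodes the myosin heavy chain that marks differentiated smooth muscle cells. It measured 11.2, 12.7, 12.2 and 17.2 FPKM in control 1 to 4 and 12.5, 13.4, 13.3 and 15.3 FPKM in ANG II 1 to 4. Control 4 was the highest of all 8 and the groups overlapped. The log2 fold change was 0.04 ± 0.12 (SE), with a 95% interval of -0.23 to 0.31 (limma, Benjamini-Hochberg adjusted p = 0.819). Its sign depended on the scaling, with -0.17 after median-of-ratios scaling and -0.20 after quantile normalization. Mylk (chr16:34745210-35002420), the myosin light chain kinase of smooth muscle and of nonmuscle cells, measured 14.4, 12.7, 13.1 and 14.8 FPKM in control and 16.0, 12.6, 17.9 and 14.8 FPKM with ANG II. ANG II 2 was the lowest of all 8 and ANG II 3 the highest. The log2 fold change was 0.14 ± 0.10 (SE; limma, Benjamini-Hochberg adjusted p = 0.328), and it was -0.07 after median-of-ratios scaling. In Mylk, 6.85% of the exon bases lie under genes of the opposite strand, which matters only if the counting ignored strand.

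All 3 calponins, which bind actin and restrain myosin, rose with ANG II. Cnn1 (chr9:22099216-22109630), the calponin of mature smooth muscle, measured 3.65, 4.24, 3.41 and 4.35 FPKM in control and 11.4, 17.7, 7.53 and 6.73 FPKM with ANG II. All ANG II libraries were above all control libraries, and they differed among themselves by more than for any other member apart from Tagln, with a coefficient of variation of 46.3% against 11.6% in control. The mean rose 2.77-fold, from 3.91 ± 0.45 to 10.8 ± 5.01 FPKM (SD, n = 4 each), and the log2 fold change of 1.18 ± 0.24 (SE) was exceeded by 2.60% of all genes tested (limma, Benjamini-Hochberg adjusted p = 0.00455). The call rested on 58 to 73 fragments a library in control and 118 to 310 with ANG II, and it held under all 17 alternatives that kept the fold threshold of 0.5, with log2 fold changes from 0.89 to 1.37.

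Cnn2 (chr10:79988584-79996062), a calponin made by many cell types, was the more abundant gene. It measured 27.9, 25.2, 28.3 and 25.4 FPKM in control and 45.1, 41.5, 36.8 and 39.1 FPKM with ANG II, without overlap. The log2 fold change was 0.58 ± 0.07 (SE; limma, Benjamini-Hochberg adjusted p = 2.63e-04). This lies near the threshold of 0.5, and under 3 scalings of the libraries the change was 0.36, 0.39 and 0.44 with adjusted p-values of 0.00431 or less, so that the call was lost through the fold threshold. Cnn3, the other calponin and a gene of many cell types, rose as well, from 34.3 ± 2.89 to 65.0 ± 7.51 FPKM (log2 fold change 0.90; limma, Benjamini-Hochberg adjusted p = 9.29e-05). The 3 calponins together summed to 64.9 FPKM in control and 116 FPKM with ANG II, of which Cnn1 made up 6.02 ± 0.60% and 9.07 ± 3.34% (SD, n = 4 each).

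Caldesmon, encoded by Cald1 (chr6:34598500-34775473), binds actin, myosin and calmodulin, and its shorter forms occur in cells other than smooth muscle. Cald1 measured 48.2, 52.1, 48.2 and 52.9 FPKM in control and 93.1, 90.7, 93.7 and 88.8 FPKM with ANG II. It was the member with the least spread, with coefficients of variation of 4.98% and 2.49%, and the groups were far apart. The mean rose 1.82-fold (log2 fold change 0.85 ± 0.05 SE; limma, Benjamini-Hochberg adjusted p = 4.70e-06), and under the 17 alternatives at that threshold it ran from 0.62 to 0.88 with a call in each. With a threshold of 1 it was not called. The gene has 18 annotated transcripts, and gene-level values do not separate the smooth muscle form from the others.

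The transgelins are small actin-binding relatives of the calponins. Tagln2 (chr1:172500047-172507380), which is made by many nonmuscle cells, was the most abundant member in both groups. It measured 88.7, 75.5, 68.2 and 74.4 FPKM in control and 173, 148, 149 and 139 FPKM with ANG II, without overlap. The mean rose 1.99-fold (log2 fold change 0.98 ± 0.09 SE; limma, Benjamini-Hochberg adjusted p = 4.90e-05), with a call under all 17 alternatives at the threshold of 0.5 and none at a threshold of 1.

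Tagln (chr9:45929619-45936058), also known as SM22 and among the most used smooth muscle markers, was listed at 0, 0, 0.062 and 0.068 FPKM in control and at 0.34, 0.39, 0.14 and 0.065 FPKM with ANG II. These values correspond to 0 or 1 fragment a library in control and 1 to 6 with ANG II, against a floor of 3 fragments that a value of 0 allows. The groups overlapped (limma, Benjamini-Hochberg adjusted p = 0.0976), and of the 9 members without Tagln 4 were called. Of the exon bases of Tagln, 67.9% lie under the genes Gm48529 and Pcsk7 on the opposite strand, and 58.4% of its 50-base words are shared with another gene, most of them with Gm48529. Gm48529 was itself listed at 0 to 0.17 FPKM (0 to 4 fragments), while Pcsk7, a proprotein convertase gene, was at 13.5 to 16.1 FPKM. The part of this overlap in the low value was not tested. No change in Tagln is read from these values.

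Among the genes that organise the actin filament, Smtn was the member that went down. Smtn (chr11:3517523-3540612) encodes smoothelin, which is bound to actin in contractile smooth muscle cells. It measured 75.1, 61.6, 63.7 and 57.7 FPKM in control and 50.5, 49.99, 53.6 and 53.6 FPKM with ANG II, with all ANG II libraries below all control libraries. The log2 fold change was -0.30 ± 0.08 (SE; limma, Benjamini-Hochberg adjusted p = 0.0130), under the fold threshold. After subtraction of the all-gene median it was -0.45. The adjusted p-value stayed under 0.05 in all 17 alternatives (highest 0.0414), and after median-of-ratios scaling the change of -0.53 became a call. Of its exon bases, 16.3% lie under Gm11946 and Gm11947 on the opposite strand, which were at 0 to 0.18 FPKM.

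Synpo2 (chr3:123076519-123236149) encodes synaptopodin 2, also called myopodin, which bundles actin and sits at the Z-disc of striated muscle and the dense bodies of smooth muscle. It measured 25.0, 25.2, 29.7 and 29.5 FPKM in control and 33.3, 40.2, 31.2 and 33.9 FPKM with ANG II, without overlap. The log2 fold change was 0.33 ± 0.09 (SE; limma, Benjamini-Hochberg adjusted p = 0.0179), also under the fold threshold. Under 3 scalings it fell to between 0.11 and 0.19 with adjusted p-values of 0.171 to 0.481. Lmod1 (chr1:135324807-135368065), the leiomodin of smooth muscle, was the lowest of the members that could be read, at 1.30, 1.32, 1.35 and 2.12 FPKM in control and 1.25, 1.40, 1.84 and 1.60 FPKM with ANG II. Control 4 was the highest, as it was for Myh11. The log2 fold change was 0.01 with a 95% interval of -0.29 to 0.31 (limma, Benjamini-Hochberg adjusted p = 0.969), on 74 to 128 fragments a library, and its sign also turned under 3 scalings.

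**Figure D2:**
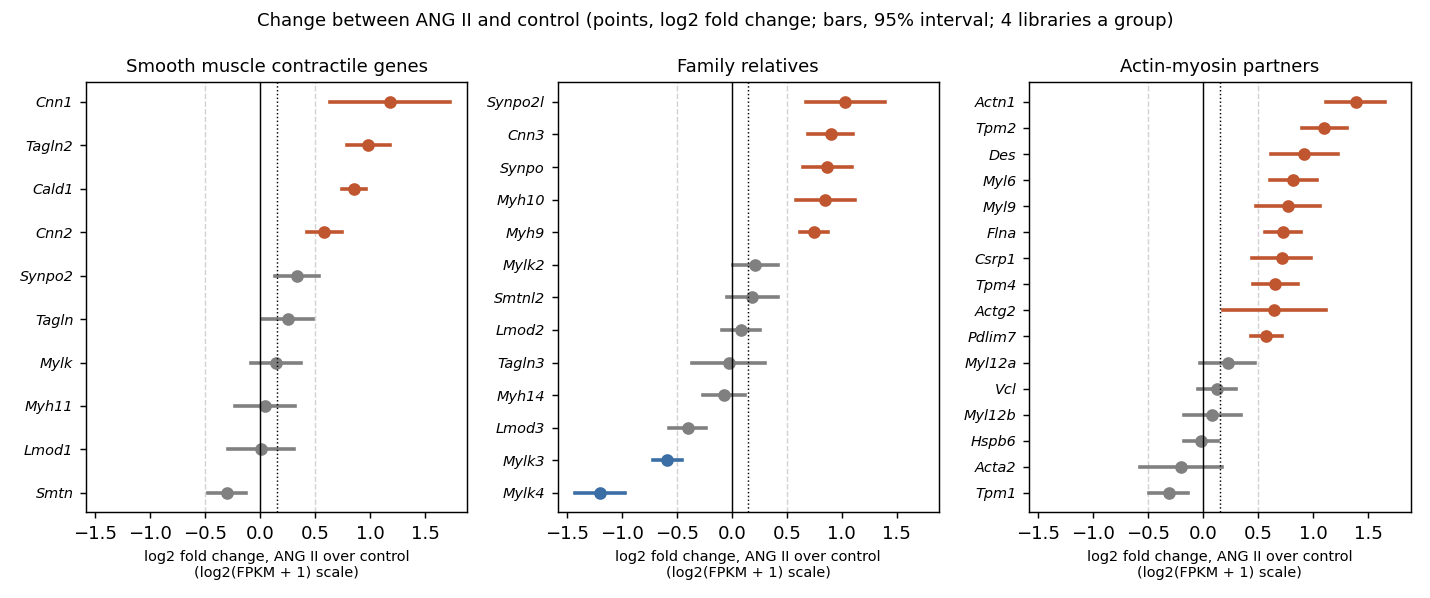
Log2 fold change of ANG II over control on the log2(FPKM + 1) scale with 95% intervals, for the 10 contractile genes, 13 tested family relatives and 16 actin-myosin partners. Red marks genes called higher, blue genes called lower, grey genes without a call, the dotted line the median of all genes tested (0.15) and dashed lines the fold threshold of 0.5; 4 contractile genes, 5 relatives and 10 partners are red, and 2 relatives are blue.

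The order of the members by level shifted with the changes. In control it ran Tagln2 (76.7 FPKM), Smtn (64.5), Cald1 (50.4), Synpo2 (27.3), Cnn2 (26.7), Mylk (13.7), Myh11 (13.3), Cnn1 (3.91), Lmod1 (1.52) and Tagln (0.033). The ranges of the 4 libraries overlapped between Tagln2 and Smtn, Synpo2 and Cnn2, and Mylk and Myh11. With ANG II it ran Tagln2 (152 FPKM), Cald1 (91.6), Smtn (51.9), Cnn2 (40.6), Synpo2 (34.7), Mylk (15.3), Myh11 (13.6), Cnn1 (10.8), Lmod1 (1.52) and Tagln (0.23). Here Cald1 stood above Smtn without overlap, while Cnn2 and Synpo2, Mylk and Myh11, and Myh11 and Cnn1 overlapped. Both orders rest on mean annotated transcript lengths, such as 5236 bases for Myh11 and 2344 for Mylk. In control, Myh11 had 847 to 1379 fragments a library and Mylk 435 to 529, although their FPKM ranges overlapped. The summed level of the members was 268 to 295 FPKM in control and 393 to 436 FPKM with ANG II. Most of this difference lay in Tagln2 and Cald1, which cells other than smooth muscle also make. Myh11, Mylk and Lmod1 added little to it, and Smtn fell.

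Members other than Smtn and Cald1 were next set against related genes, as a log2 ratio of (FPKM + 1) values within 1 library. Scaling of the libraries cancels in such a ratio for abundant genes, but not wholly for low genes, where the pseudocount counts. Of the 14 relatives, 13 passed the filter, of which 5 were called higher and 2 lower, with a median log2 fold change of 0.18. The nonmuscle myosin heavy chain genes Myh9 and Myh10 rose, from 106 ± 2.64 to 178 ± 14.2 FPKM and from 19.5 ± 1.73 to 36.4 ± 6.20 FPKM (SD, n = 4 each; limma, Benjamini-Hochberg adjusted p = 2.24e-05 and 5.76e-04). The third, Myh14, was at 29.7 ± 1.79 and 28.3 ± 3.55 FPKM. In FPKM, Myh11 therefore made up 7.91 ± 1.48% of these 4 heavy chains in control and 5.33 ± 0.63% with ANG II. Mean annotated transcript lengths differ between them, with 5236 bases for Myh11 and 2127 for Myh9. The size of such a share, here and in the other families, is therefore not read as a proportion of RNA molecules. The log2 ratio of Myh11 to Myh9 was -3.18, -2.93, -2.99 and -2.56 in control and -3.89, -3.57, -3.61 and -3.39 with ANG II, and that of Myh11 to Myh10 was lower by 0.81 on average. In both ratios all ANG II libraries were below all control libraries, although Myh11 itself was not called.

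**Figure D3:**
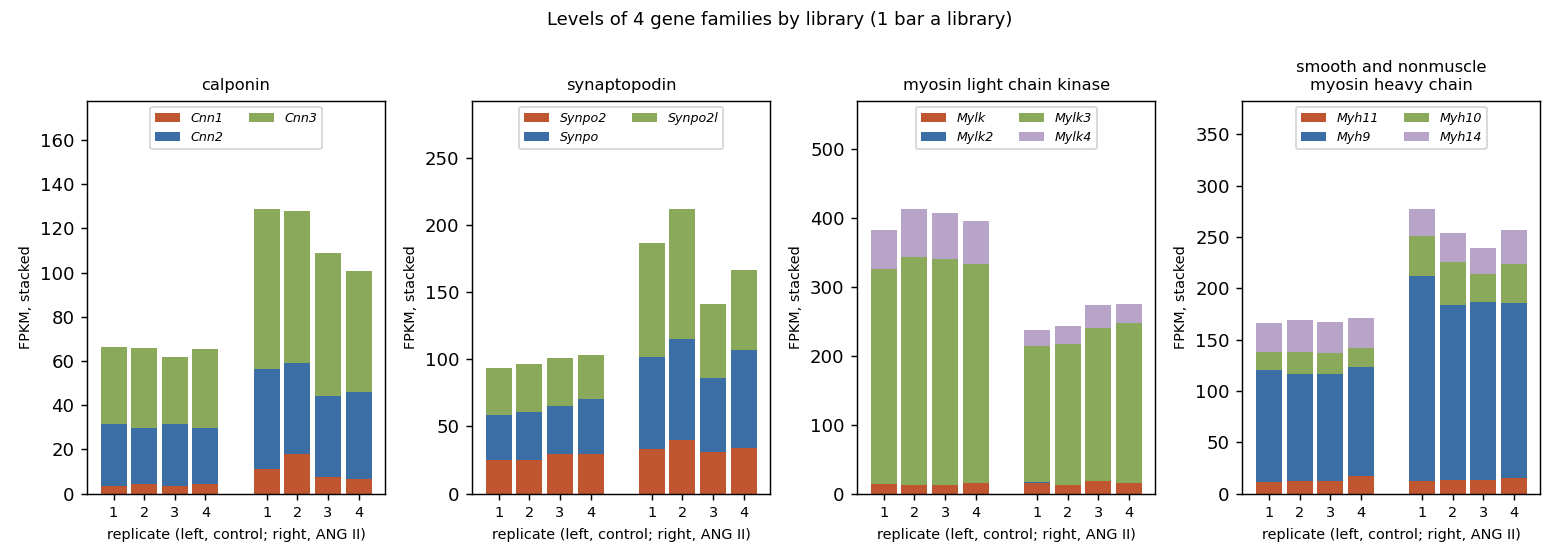
Stacked FPKM of the calponin, synaptopodin, myosin light chain kinase and myosin heavy chain genes in each library, control on the left and ANG II on the right of each panel, with the smooth muscle member at the bottom in red. The calponin sum went from 64.9 to 116 FPKM on average and the kinase sum from 399 to 257 FPKM, while the red segments of Mylk and Myh11 stayed at 11.2 to 17.9 FPKM in all libraries.

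For the kinases the direction was the opposite. Mylk3, the cardiac myosin light chain kinase, fell from 321 ± 8.55 to 214 ± 15.9 FPKM and Mylk4 from 64.2 ± 5.82 to 27.6 ± 4.03 FPKM (SD, n = 4 each; limma, Benjamini-Hochberg adjusted p = 8.17e-05 and 3.79e-05). Mylk2, the skeletal muscle kinase, was at 0 to 0.34 FPKM. The share of Mylk in the kinase sum went from 3.45 ± 0.35% to 5.96 ± 0.80%, and its log2 ratio to Mylk3 was higher by 0.73 with ANG II. Mylk itself differed by less than the spread between libraries.

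Synpo2l, a relative at the Z-disc of striated muscle, rose 2.13-fold to 74.0 ± 20.1 FPKM (limma, Benjamini-Hochberg adjusted p = 9.39e-04), and Synpo, known from podocytes and nerve cells, rose 1.86-fold to 67.7 ± 9.22 FPKM (limma, Benjamini-Hochberg adjusted p = 1.96e-04). The share of Synpo2 in the 3 synaptopodin genes went from 27.7 ± 1.62% to 19.9 ± 1.86%. Lmod2, the cardiac leiomodin, was at 343 ± 33.4 and 362 ± 23.6 FPKM and made up 87.2% of the leiomodin sum in control and 90.5% with ANG II, Lmod3 held 12.4% and 9.11%, and Lmod1 0.39% and 0.38%. Lmod3 was lower by 0.40 on the log2 scale (limma, Benjamini-Hochberg adjusted p = 0.00285), short of a call. Under 3 scalings of the libraries it was called, down to -0.62, which made 3 relatives lower in place of 2. Of the smoothelin family, Smtnl2 was at 7.59 ± 0.96 and 8.76 ± 0.96 FPKM and Smtnl1 at 0 to 0.039 FPKM, and Tagln3 stood at 0.16 to 0.68 FPKM.

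Of the 8 ratios compared, 5 had an adjusted p-value of 0.0457 (exact two-sided permutation test over the 70 allocations, p = 0.0286, the smallest this design allows, for each), namely Myh11 to Myh9, Myh11 to Myh10, Mylk to Mylk3, Synpo2 to Synpo2l and Tagln2 to Tagln. The last rests on the near absence of Tagln, turned its sign with a smaller pseudocount (-0.25 at 0.1 in place of 0.73 at 1) and is not read. At a pseudocount of 1 the other 4 passed only with it in the count: adjusted over the 7 ratios without Tagln, their exact permutation tests gave 0.05, which is not under the threshold, so that 0 of 7 passed. Cnn2 to Cnn1 was lower by 0.60 with ANG II (exact permutation test, p = 0.0857, adjusted 0.114), with ANG II 2 at 1.18 and the control libraries at 2.31 to 2.73. Without a pseudocount this ratio was lower by 0.77, and it and the same 4 ratios had an adjusted p-value of 0.040 over the 7 ratios without Tagln. Cnn3 to Cnn1 and Lmod1 to Lmod2 differed by -0.28 and -0.07 (exact permutation tests, p = 0.371 and 0.514). Leaving out control 4 or ANG II 1 also ended each of the 5 calls (adjusted p = 0.057 to 0.091 by the exact permutation test), and the directions stayed. With each library left out in turn, 0 to 6 ratios had an adjusted p-value under 0.05.

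**Figure D4:**
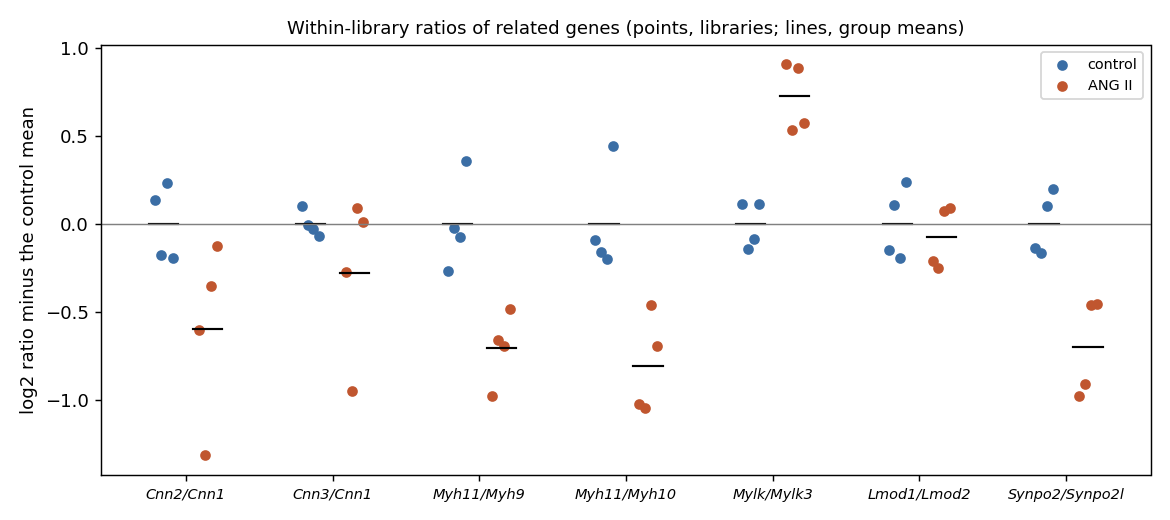
Log2 ratio of 7 pairs of related genes in each library, on log2(FPKM + 1) values and minus the mean of the control libraries, with points for libraries (blue control, red ANG II) and lines for group means. The red points are below all blue points for Myh11 to Myh9, Myh11 to Myh10 and Synpo2 to Synpo2l and above them for Mylk to Mylk3.

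The proteins that work with the members were taken as a list of 16 actin-myosin partners, of which 10 were called higher and 0 lower, with a median log2 fold change of 0.65 against 0.15 over all genes. Actn1, an actinin of nonmuscle and smooth muscle cells, rose 2.68-fold, Tpm2, a tropomyosin, 2.20-fold, and Des, the intermediate filament protein of muscle, 1.92-fold. Myl9, the regulatory light chain of smooth muscle myosin, rose from 44.9 ± 6.74 to 77.4 ± 12.5 FPKM (limma, Benjamini-Hochberg adjusted p = 0.00160). Acta2, the best known smooth muscle gene, measured 80.7, 110, 99.2 and 143 FPKM in control and 103, 78.9, 108 and 80.3 FPKM with ANG II, with overlap (log2 fold change -0.20; limma, Benjamini-Hochberg adjusted p = 0.385). Actg2, the second smooth muscle actin, rose to 2.55 ± 0.51 FPKM from 1.32 ± 0.65, but its adjusted p of 0.0378 (limma, Benjamini-Hochberg) or its fold fell short of the thresholds in 10 of 17 alternatives. Tpm1, which is also the main tropomyosin of heart muscle, was lower by 0.32 (limma, Benjamini-Hochberg adjusted p = 0.0123), under the fold threshold. After median-of-ratios scaling, 5 of the 16 partners were called higher and 1 lower, and under the other 2 scalings 7 and 8 were higher and 0 lower.

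Control of the members was covered by a pair of other lists. Of 16 genes that set myosin phosphorylation, Calm2 (a calmodulin gene) and Prkg1 (the cyclic GMP kinase that relaxes smooth muscle) were called higher, by 0.60 and 0.57, and 0 were called after 3 scalings of the libraries. By adjusted p alone 8 of the 16 were higher, against 28.4% of all genes, and 2 after median-of-ratios scaling, 4 after quantile normalization (1 lower in each) and 6 without mitochondrially encoded genes and the 10 most abundant. Of 10 genes for SRF and its regulators, 1 was called higher, Mkl1 (a cofactor of SRF that senses free actin) by 0.64, and the list's median was -0.0035. Neither this count of calls nor that of the phosphorylation list exceeds the 14.0% of all genes called higher. Srf was at 96.9 ± 9.95 and 89.4 ± 8.79 FPKM (log2 fold change -0.12; limma, Benjamini-Hochberg adjusted p = 0.369). Over the 17 alternatives Srf ran from -0.34 to -0.04, with adjusted p-values from 0.0171 to 0.719 (limma, Benjamini-Hochberg). Myocd, the cofactor that drives the smooth muscle programme and is also made by heart muscle, was at 20.3 ± 1.26 and 16.7 ± 2.61 FPKM (log2 fold change -0.28; limma, Benjamini-Hochberg adjusted p = 0.0717). After quantile normalization 0 genes of this list were called higher and 1 lower, which was Myocd at -0.51, and after median-of-ratios scaling Myocd stood at -0.50 and 0 were called. By adjusted p alone, 3 of the list were higher and 0 lower as deposited. This became 1 higher and 4 lower after median-of-ratios scaling and after quantile normalization, and 1 and 1 without mitochondrially encoded genes and the 10 most abundant.

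Markers of the cell types that share these genes are given beside them. Of 8 other smooth muscle markers, 3 were called higher (Mcam 0.96, Heyl 0.68 and Rasl12 0.56) and 0 lower. Fbxl22 and Pcp4l1 of the same list were lower by 0.42 and 0.26 without overlap (limma, Benjamini-Hochberg adjusted p = 0.0111 and 0.00568), under the fold threshold. After median-of-ratios scaling and after quantile normalization this became 1 higher and 1 lower (Fbxl22), and without mitochondrially encoded genes and the 10 most abundant 2 higher and 1 lower. Their sum was 178 to 193 FPKM in control and 205 to 230 FPKM with ANG II. Of 9 pericyte markers, 3 were called higher, Cspg4 and Pdgfrb the most (0.71 and 0.62), and 1 lower (Abcc9, by 0.55), with sums of 525 to 562.04 and 566 to 626 FPKM. After median-of-ratios scaling and without mitochondrially encoded genes and the 10 most abundant, 1 of them was still called higher, and after quantile normalization 0, with 1 lower under each. Markers of fibroblasts and macrophages had larger changes. Of 9 fibroblast markers 8 were called higher (Col1a1, Col1a2 and Col3a1 by 2.89 to 3.25), with sums of 1208 to 1672 FPKM in control and 3409 to 3886 FPKM with ANG II. The ninth, Gsn, which encodes an actin-severing protein and was the most abundant of the list in control, went from 819 ± 97.4 to 587 ± 122 FPKM with overlap (SD, n = 4 each; log2 fold change -0.50; limma, Benjamini-Hochberg adjusted p = 0.0280), just short of the fold threshold, and was called lower under the 3 scalings (-0.54 to -0.73) and without control 3, ANG II 3 or ANG II 4. All 7 activated fibroblast markers were called higher (Cthrc1, Postn and Thbs4 by 3.98 to 4.83), with sums of 40.5 to 84.1 and 690 to 1136 FPKM. All 8 macrophage markers were called higher (Cd68, Adgre1 and Fcgr1 by 1.33 to 1.71), with sums of 187 to 234 and 394 to 558 FPKM. Of 9 endothelial markers, Vwf (0.56) and Pecam1 (0.52) were called higher, with sums of 532 to 587 and 607 to 690 FPKM. Under the 3 scalings 0 of the 9 were called, and 1 was called without ANG II 1 or 3 (Pecam1 lost) or without ANG II 2 (Vwf lost). The sum of 9 cardiomyocyte markers was 47619 to 48546 FPKM in control and 35766 to 38464 FPKM with ANG II, with Tnni3 and Myh6 called lower by 0.58 and 0.55. After quantile normalization neither was called (-0.37 and -0.099, with 1 other marker lower), while 5 of the 9 were lower after median-of-ratios scaling and 4 without ANG II 3. The part of these cell types in the changes of Cnn1, Cnn2, Tagln2, Cald1 and Smtn was not tested.

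**Figure D5:**
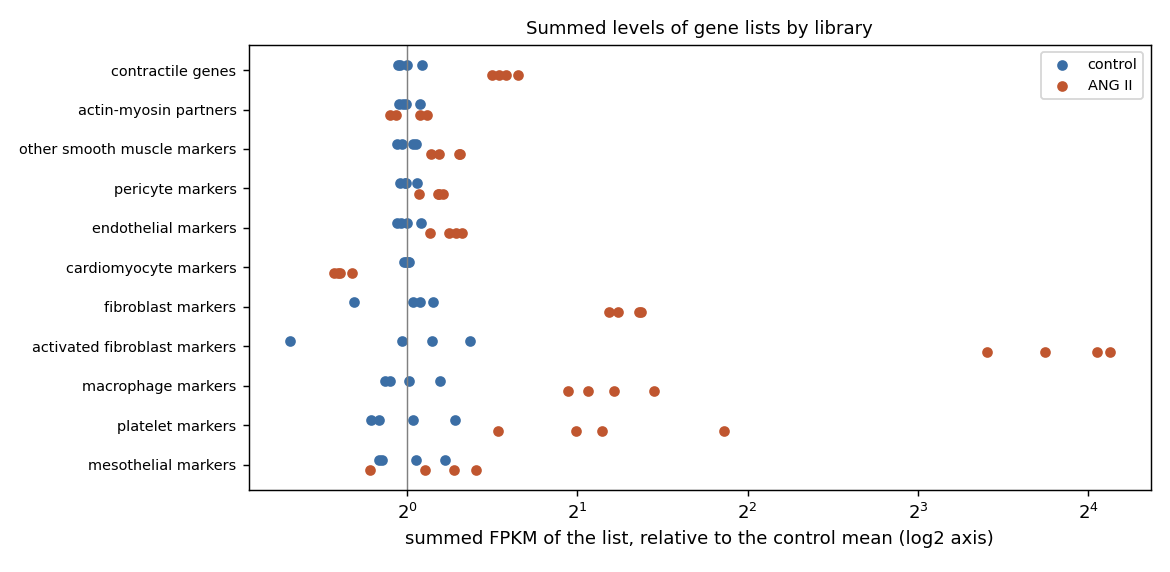
Summed FPKM of each gene list in each library (blue control, red ANG II), divided by the mean of the 4 control libraries, on a log2 axis. The contractile genes sum to 393 to 436 FPKM with ANG II against 268 to 295 in control, a smaller shift than that of the fibroblast and macrophage markers and larger than that of the other smooth muscle markers. Most of the shift of the contractile genes lies in Tagln2 and Cald1.

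Markers of platelets and of the atria differed within groups and between them. Of 5 platelet markers, Pf4 was called higher (1.11), Gp1bb was at 0 in all libraries, and ANG II 2, which was also highest for Cnn1, Tagln and Synpo2, stood highest in Ppbp (15.5 FPKM against 0.38 to 3.86 in the other 7), Itga2b (11.6 against 1.32 to 2.51) and Gp9 (3.77 against 0 to 1.04). Without ANG II 2, Cnn1 was higher by 0.93 and still called. The 4 atrial markers summed to 1.15 to 48.8 FPKM in control, lowest in control 3, and to 52.5 to 230 FPKM with ANG II, highest in ANG II 3, without overlap. Myl7 ranged from 0.20 FPKM in control 3 to 89.6 FPKM in ANG II 3, Myl4 from 0.95 to 128 FPKM in the same libraries, and Sln was called higher by 1.69 but lost its call in 8 of 17 alternatives. Of 6 mesothelial markers, limma called 0, with 0 at an unadjusted p under 0.05 and 0 called by voom. The part of these differences in the members' values was not tested.

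With the group means taken out, the members did not vary as 1 set across the 8 libraries. Cnn1 went with Tagln (Pearson r = 0.88, on few Tagln fragments), Myh11 with Lmod1 (0.83) and Cnn2 against Lmod1 (-0.70). With Acta2, which is no member, Cald1 had an r of 0.88 and Smtn of -0.71. These are descriptions over 8 libraries that share depth and scaling. The genes outside all lists whose deviations were most like the mean of Myh11, Cnn1, Tagln, Smtn, Mylk, Lmod1 and Synpo2 were Cyr61, Eif4e3, Srsf4, Pygl and Itih4 (r = 0.95 to 0.97, 8 libraries). Because Tagln cannot be read, the mean was also taken without it, and a different 5 genes came first, led by Rps13-ps2 at 0.97.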

How the data were processed

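The 8 left ventricle RNA-seq libraries (4 control, 4 ANG II) were grouped by their treatment labels. For these, the authors deposited 1 table of FPKM values. The submitters' processing notes name Bowtie2, HISAT and RSEM, while versions, roles, genome build, annotation and use of strand were not given in the sources used here. Without strand, a gene and its antisense partner cannot be told apart. Of the gene IDs, 55141 matched GENCODE M21 (GRCm38), which gave positions and lengths, and RefSeq (GRCm38.p6) gave promoters.

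Groups were compared with limma 3.58.1 (R 4.3.3; lmFit and eBayes, trend allowed) on values transformed as log2(FPKM + 1), with all 8 libraries and no covariate. Only genes averaging 0.1 FPKM or more entered (19364), and two-sided p-values were adjusted over them by the Benjamini-Hochberg method. Fold changes on this scale understate the change of low genes. The study names the thresholds (adjusted p under 0.05, absolute log fold change above 0.5); base 2, the pseudocount of 1 and the filter were chosen here. The script was tested on simulated data. Ratios within a library were compared by exact permutation tests. FPKM times the mean transcript length gave whole fragments for 99.3% of low values of genes with 1 exon and 97.8% with several (within 0.05 of a whole number); these counts, like the floor of 3 fragments, cover counting error only. Python 3.11.15 with pandas 2.3.3, numpy 2.4.6, scipy 1.17.1 and matplotlib 3.10.9 was used.

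Named were all members, their relatives, Acta2, Actg2, Myl9, Srf, Myocd, up to 3 called genes with the largest change from each other list, and up to 5 genes most like the members by library; Tpm1, Fbxl22, Pcp4l1, Gsn, the genes that overlap a member, and the platelet and atrial genes that were not called were named after their values were seen. The members and lists were chosen with earlier results of these data known. Alternatives changed the pseudocount, filter, scaling, variance trend, replicate block, fold threshold and test (voom on recovered fragments), and left out each library in turn.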

Additional observations from a re-analysis of the deposited data

Results flagged for a closer look

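A value was set apart where 1 library of a group of 4 lay far from the other 3 by Dixon's test, which happens by chance in about 1 of 20 groups. Of 72 groups of libraries checked, over the 10 members, their 13 tested relatives, 5 further smooth muscle genes and the 8 ratios, 5 had such a library. Lmod1 was at 2.12 FPKM in control 4, against at most 1.35 in the other control libraries. The log2 ratio of Myh11 to Myh10 was -0.086 in control 4, with the next control library at -0.62, and Myh11 was highest there too. Myh9 was at 199.6 FPKM in ANG II 1, with the next ANG II library at 173 FPKM. Tagln3 was at 0.16 FPKM in ANG II 3, against at least 0.53 in the others, on few fragments. The log2 ratio of Tagln2 to Tagln was 6.75 in ANG II 2 and at least 7.02 in the other ANG II libraries, which follows the few Tagln fragments and is not read.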

How the results depend on the processing

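Of the 4 members called, Cnn1, Tagln2 and Cald1 were called under all 17 alternatives that kept the fold threshold of 0.5, and Cnn2 under 14. With a fold threshold of 1, 1 member was called, Cnn1 as higher, against 795 of all 19364 genes tested. Of the other lists 22 genes were called at this threshold, 21 higher and 1 lower. With no fold threshold 1 member (Smtn) was called lower, and 13 genes of the other lists, and after median-of-ratios scaling 1 member (Smtn, -0.53) and 12 genes of the other lists. The other lists had 8 genes called lower after quantile normalization and 8 without mitochondrially encoded genes and the 10 most abundant, and 5 to 8 when 1 library was left out (8 without ANG II 3). Left-out libraries kept the members at 4 calls, 4 higher and 0 lower. The replicate numbers did not pair the samples (correlation of deviations from -0.032 to 0.062), and with the replicate number as a block 4 members were called; over the 4 pairs of numbers, 0 ratios passed, since the smallest p of that test is above the threshold. For the ratios, leaving out 1 library gave 0 to 6 below 0.05 and leaving out the Tagln ratio, a choice made like the other omissions of Tagln after the data had been seen, 0 of 7 (adjusted p = 0.05 for 4 by the exact permutation test). The log2 ratio of Tagln2 to Tagln reversed to -0.25 at a pseudocount of 0.1, since Tagln is near 0. Few fragments lay behind Tagln (0 to 6 a library, for a reason not tested), Lmod1 (74 to 128) and, in control, Cnn1 (58 to 73), which limits their precision. Over all genes, 273 were called lower, against 804 and 986 after median-of-ratios and quantile scaling and 536 without mitochondrially encoded and top genes. After median-of-ratios scaling the calls (higher, lower) were 0 and 0 of the SRF list, 1 and 1 of the other smooth muscle and of the pericyte markers, 0 and 0 of the endothelial and atrial, 0 and 5 of the cardiomyocyte and 7 and 1 of the fibroblast markers. The cause of the other changes with scaling was not tested.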
